A study of Mus musculus with 4 samples.

Results

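The genes described here are all those listed in the authors' comparison of 24-hour fasted with fed mice under tetracycline, whatever their change. That table holds 26085 gene rows, of 51607 in the series' pair of tables, and 17993 of its rows carry an adjusted p. Both groups were male C57BL/6J mice aged 9 weeks that had received tetracycline, an antibiotic, for 21 days, and by the labels one was fed and the other fasted for 24 hours. RNA came from crypts shaken off the small intestine in a buffer with EDTA and dissociated with trypsin. The stated aim was to learn how depleting AKK, which the labels do not spell out, with tetracycline bears on the fasting response.

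The labels list 1 sample per group. The deposited means nevertheless resolved into whole counts of 4 libraries, 2 on each side, which cannot be tied to labelled samples. They are therefore shown as single values, with no SD and no test of their own, and whether they came from separate mice is not given in the sources used here. Library 1 of each side is the more deeply sequenced by its size factor. Levels are given as normalized counts, that is counts divided by the library's size factor, and 1 read was worth 0.787 and 1.08 normalized counts in the fed and 0.823 and 1.38 in the fasted libraries. The deposited means summed to 65327199, and the size factors spanned 1.75-fold. Single libraries could be read for genes with a mean up to 10000, of which 99.97% were read; above that, each side's mean was rebuilt from the deposited mean and change.

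Every log2 change, standard error (SE) and adjusted p below is the value in the authors' deposited table, and "called" means an adjusted p under 0.05 there. A positive change means more RNA in fasted mice. No column of the table states this direction; it was taken from the table's name, which writes fast ahead of fed, and the opposite reading would turn every direction given here. A rise or fall is a share of the sequenced RNA, so fewer cells of a type and less RNA per cell cannot be told apart.

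Crypts are the pits of the intestinal lining, where stem cells divide and Paneth cells secrete antimicrobial peptides. Epithelial cells leaving the crypt mature into absorptive enterocytes or into goblet, enteroendocrine and tuft cells. When food is withheld, fatty acids released from fat stores bind the nuclear receptor PPAR alpha, which switches on genes for fatty acid oxidation and ketone body synthesis. Glucocorticoids also rise in fasting, while insulin falls, and dietary ligands of receptors such as the aryl hydrocarbon receptor no longer reach the epithelium.

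Few genes were called between fasted and fed mice under tetracycline, and most called changes were of several fold. Given the SEs below, smaller changes would mostly go uncalled, so the calls do not count all genes that changed. The authors' deposited table called 108 of 17993 genes (0.600%), of which 60 rose (0.333%) and 48 fell (0.267%). Called genes made up 0.294% of those with a mean up to 50, 1.07% from 50 to 500, 0.418% from 500 to 5000 and 0.931% above 5000. The median SE was 1.07 in the lowest of these bands and 0.40 in the band from 500 to 5000, so the smallest change called was 2.60 in the first and 1.38 in the second. Among called genes with a mean of at least 500, 33 rose and 19 fell. The median change of all genes with an adjusted p was -0.02. Whether called or not, 8.95% of the 23325 genes averaging 1 or more had a change of at least 1, and 14.0% one of at most -1.

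**Figure D1:**
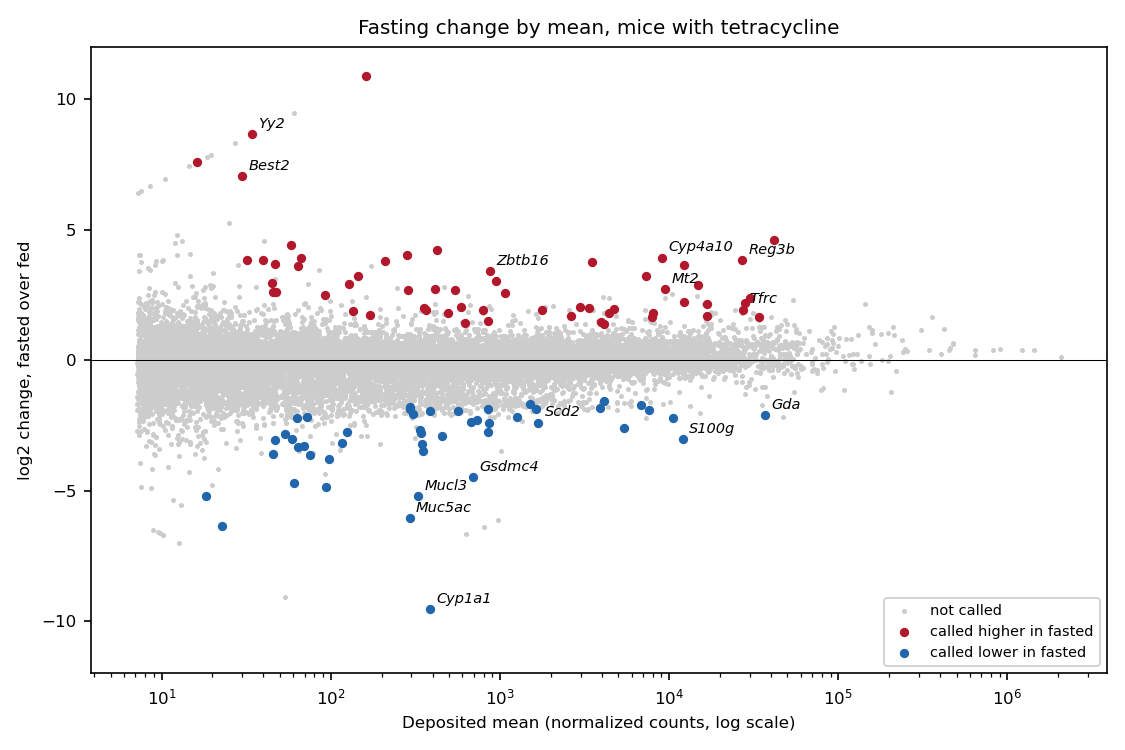
Deposited log2 change (fasted over fed, y axis) against deposited mean in normalized counts (x axis, log scale), one point per gene with an adjusted p; red and blue points are the 60 genes called higher and the 48 called lower in fasted mice, and 2 genes lie outside the axis of plus and minus 12. Called genes lie at small absolute changes only where the mean is high.

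The libraries of a side were not alike. Among genes whose mean lay between 1000 and 5000, the fasted pair's log2 ratio had an SD across genes of 0.74, against 0.43 for the fed pair, and 13.6% and 3.28% of genes were at least 2-fold apart. Of the 94 called genes that could be read, 92 had both fasted libraries on the same side of both fed ones, and the exceptions, Amy2a4 and Gm14440, had all of their counts in 1 library. The calls were made on these same libraries, so for called genes this separation follows largely from the selection and adds no separate evidence. Among all 16914 read genes with an adjusted p, 15.7% had both fasted libraries above both fed and 15.9% below. Such a separation is therefore called "apart" below and read against those shares.

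Fat use under PPAR alpha held more called genes than any other list. Of 14 PPAR alpha targets outside oxidation, 7 rose and none fell, with a median change of 1.60. The median of the 10 read members was 1.40, and 0.88 without fasted library 2.

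Cyp4a10, an omega-hydroxylase of fatty acids, stood at 812 and 1422 normalized counts in fed against 14671 and 19326 in fasted libraries. Both fasted libraries were far above both fed ones, and the deposited change was 3.93 (SE 0.45, adjusted p 9.08e-14). Cyp4a31, a close relative with far fewer reads, stood at 6.30 and 12.9 in fed against 52.7 and 183 in fasted libraries (deposited change 3.63, SE 0.86, adjusted p 0.00746). These Cyp4a copies are similar enough in sequence that the split of reads between them is uncertain.

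Acot1 and Acot2 release free fatty acids from acyl-CoA in the cytosol and in mitochondria. Acot1 was read at 814 and 2027 normalized counts in fed against 16399 and 10071 in fasted libraries, a deposited change of 3.22 (SE 0.56, adjusted p 8.28e-06). Acot2 was read at 1196 and 1468 in fed against 6584 and 4149 in fasted libraries, a deposited change of 2.01 (SE 0.43, adjusted p 0.00109). The pair is near-identical over much of its sequence, so the split between them is uncertain. Both had fasted libraries apart from fed, which does not show that each rose on its own. Vnn1, a pantetheinase, stood at 1909.6 and 1923 in fed against 4150.3 and 10912 in fasted libraries, with a deposited change of 1.97 (SE 0.54, adjusted p 0.0463).

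Further PPAR alpha targets act outside the oxidation pathway itself. Pdk4 blocks pyruvate dehydrogenase and so spares glucose; its rebuilt mean went from 3510.4 to 26127, a deposited change of 2.90 (SE 0.62, adjusted p 0.00111). Angptl4, an inhibitor of lipoprotein lipase, went from 1811 to 22589, a deposited change of 3.64 (SE 0.64, adjusted p 1.38e-05). Creb3l3 (1.22, SE 0.50) and Ucp2 (-0.36, SE 0.35), which have the highest means of the list, were not called in the authors' deposited table.

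Of the oxidation enzymes themselves, 1 of 24 was called. All 24 listed enzymes of mitochondrial and peroxisomal fatty acid oxidation had a deposited change above 0, where 48.0% of all genes did. Their median was 0.59 and the mean weighted by 1 over the squared SE was 0.75. The called member was Eci2, an isomerase for unsaturated fatty acids, at 3785 and 3875 normalized counts in fed against 11392 and 12704 in fasted libraries (deposited change 1.65, SE 0.35, adjusted p 0.00111). The 95% interval excluded 0 for 10 of the 24, and all 8 members that could be read were apart, with a median of 0.79, or 0.46 without fasted library 2. Among the members with the highest means, the trifunctional protein subunit Hadha (0.97, SE 0.35) and the thiolase Acaa2 (1.27, SE 0.44) had intervals above 0, while Hadh (0.04, SE 0.43) did not; none of these was called in the authors' deposited table.

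The called genes given next were in no list and were picked after their values were seen. Mgll, which splits monoacylglycerol, was read at 212 and 199.5 normalized counts in fed against 2481 and 901 in fasted libraries, a deposited change of 3.04 (SE 0.57, adjusted p 5.91e-05). Plin5, a lipid droplet coat protein that links droplets to mitochondria, was read at 7.87 and 2.16 in fed against 100.4 and 48.2 in fasted libraries (deposited change 3.85, SE 0.93, adjusted p 0.00907). Of its family the better covered Plin3 (0.17, SE 0.57) and Plin2 (0.40, SE 0.35) were not called. Retsat, an oxidoreductase that saturates retinol, went from a rebuilt mean of 9696 to 50396 (deposited change 2.38, SE 0.47, adjusted p 0.000196). Pxmp4, a peroxisomal membrane protein, and Hsd17b11, a dehydrogenase found on lipid droplets, had deposited changes of 1.38 (SE 0.36, adjusted p 0.0313) and 1.66 (SE 0.46, adjusted p 0.0463). Hif3a, a hypoxia-inducible factor, went from 27.6 and 29.1 in fed to 289.6 and 495 in fasted libraries, a deposited change of 3.79 (SE 0.53, adjusted p 2.25e-09).

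**Figure D2:**
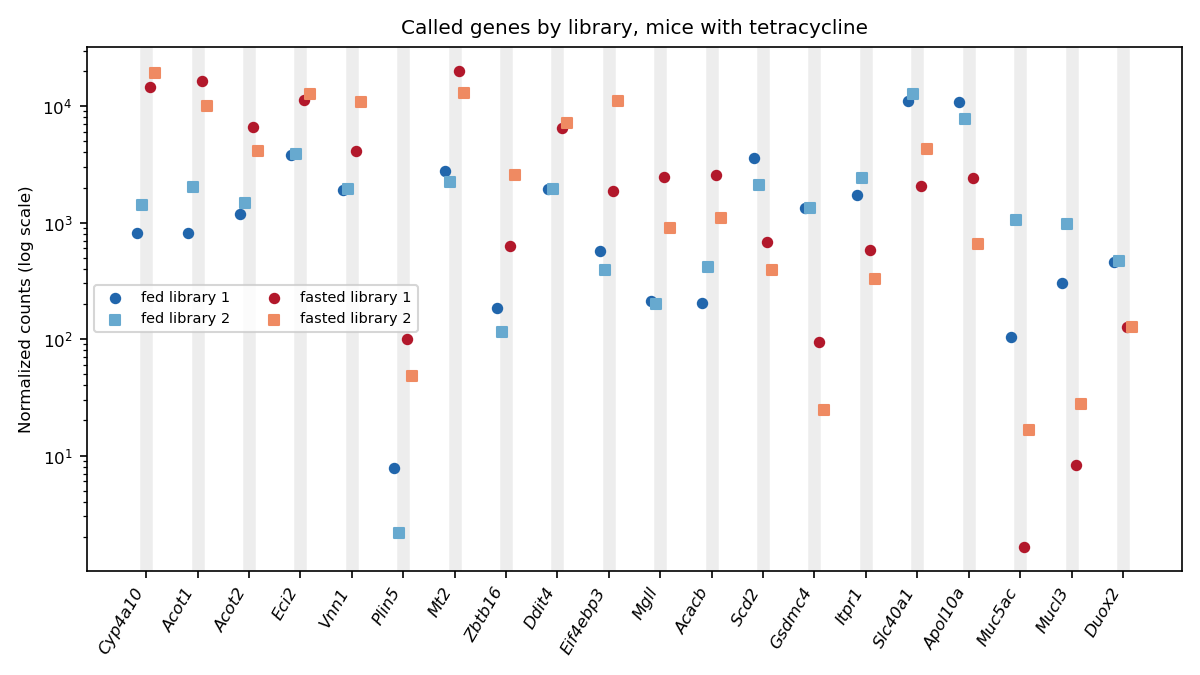
Normalized counts (y axis, log scale) of 20 called genes in each of the 4 libraries under tetracycline; blue symbols are the fed and red or orange symbols the fasted libraries, circles library 1 and squares library 2. For each of the 20 genes both fasted libraries lie on the same side of both fed ones, with Cyp4a10 from 812 and 1422 in fed to 14671 and 19326 in fasted libraries. The genes were called on these same libraries, which favours such a separation.

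Lipid synthesis gave a mixed picture. Scd2, a desaturase that makes monounsaturated fatty acids, fell from 3555 and 2120.5 normalized counts in fed to 684 and 395 in fasted libraries, a deposited change of -2.39 (SE 0.49, adjusted p 0.000569). Acacb, the acetyl-CoA carboxylase whose malonyl-CoA restrains fatty acid entry into mitochondria, rose from 203 and 413 to 2561 and 1098 (deposited change 2.57, SE 0.59, adjusted p 0.004). The remaining 12 genes of the fatty acid synthesis list were not called and the list's median was -0.40, or -0.06 without fasted library 2; its highest means were Fads2 (0.35, SE 0.49), Srebf1 (0.83, SE 0.53), Me1 (0.60, SE 0.38) and Elovl6 (-1.12, SE 0.41).

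Cholesterol synthesis and uptake showed no common rise or fall. None of its 24 genes was called in the authors' deposited table, the median change was 0.08, and for 15 of them the 95% interval lay within plus and minus 1, which excludes a 2-fold change either way at that confidence. The remaining intervals did not exclude a 2-fold change. Chylomicron assembly and fat absorption lay higher, with a median of 0.92 and 16 of 17 genes above 0, but none was called. Apoa4 (1.20, SE 0.83), Apoa1 (1.65, SE 0.79) and Mttp (1.29, SE 0.70), which build and load chylomicrons, had wide errors, and Fabp2 had a deposited change of 0.00 (SE 0.53). Only 1 member of that list could be read, Sar1b, a GTPase of chylomicron export named for that reason alone, with 6398 and 7047 normalized counts in fed against 5137 and 16984 in fasted libraries, so its level was high in 1 fasted library only.

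Of 13 listed glucocorticoid targets, 3 rose and none fell, with a median of 0.79. The 11 read members had a median of 0.76, and 0.18 without fasted library 2. Fkbp5, a co-chaperone of the glucocorticoid receptor, went from a rebuilt mean of 4346 to 20247, a deposited change of 2.22 (SE 0.55, adjusted p 0.0147). Ddit4, an inhibitor of the growth kinase mTORC1, was even between libraries of a side, at 1943 and 1924 normalized counts in fed against 6526 and 7161 in fasted libraries (deposited change 1.82, SE 0.35, adjusted p 0.000142). Zbtb16, a zinc finger transcription factor, was read at 186 and 114 in fed against 629 and 2563 in fasted libraries, so its deposited change of 3.41 (SE 0.69, adjusted p 0.000339) rested largely on fasted library 2. Sgk1 (1.92, SE 0.74) and Tsc22d3 (1.07, SE 0.55) were not called, and the receptor gene Nr3c1 had a deposited change of -0.33 (SE 0.39).

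Eif4ebp3, which binds the cap-binding factor eIF4E and restrains translation, belonged to no list. It was read at 572 and 394 normalized counts in fed against 1881 and 11140.0 in fasted libraries. Its deposited change was 3.75 (SE 0.75, adjusted p 0.000264), and most of the fasted signal came from library 2. Apart from Pdk4, given above with the PPAR alpha targets, the listed genes of glycolysis, gluconeogenesis and pyruvate control were not called. Pck1, the gatekeeper of gluconeogenesis, had a deposited change of 2.32 (SE 0.78, adjusted p 0.254), while the glycolytic Gapdh (-0.35, SE 0.53) and Ldha (-0.38, SE 0.47) differed by less than their errors.

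Both Mt1 and Mt2 rose; they are metallothioneins, small proteins that bind zinc and copper and whose genes respond to metals and glucocorticoids. Mt2 was read at 2762 and 2232 normalized counts in fed against 20092 and 12843 in fasted libraries, a deposited change of 2.72 (SE 0.42, adjusted p 1.96e-07). Mt1 went from a rebuilt mean of 6164 to 27272, a deposited change of 2.15 (SE 0.37, adjusted p 8.81e-06). The zinc transporters of the same list were not called; the ones with the highest means, Slc39a5 and Slc30a5, had deposited changes of 0.77 (SE 0.39) and 0.62 (SE 0.50). Because these neighbouring genes rose together, the 250 bases before each start are printed here from RefSeq on GRCm38.p6. Capitals mark every match on either strand to the metal response cores TGCACNC and TGCGCNC and, for Mt1, to the palindrome of the glucocorticoid response element, in its strict form without mismatch in the conserved bases.
Mt1 promoter, chr8:94178839-94179088, plus strand: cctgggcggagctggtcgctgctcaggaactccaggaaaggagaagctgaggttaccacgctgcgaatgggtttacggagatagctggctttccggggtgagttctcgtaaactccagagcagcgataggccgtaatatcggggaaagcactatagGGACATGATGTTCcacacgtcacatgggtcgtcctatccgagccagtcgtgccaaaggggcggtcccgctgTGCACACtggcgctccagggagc
Mt2 promoter, chr8:94172368-94172617, plus strand: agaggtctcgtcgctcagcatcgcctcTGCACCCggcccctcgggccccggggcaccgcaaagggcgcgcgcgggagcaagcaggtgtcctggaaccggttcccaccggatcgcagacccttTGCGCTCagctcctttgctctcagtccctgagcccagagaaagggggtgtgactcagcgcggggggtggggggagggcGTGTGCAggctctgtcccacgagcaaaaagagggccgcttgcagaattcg
Of 32851 promoters of that length, 10.4% hold TGCACNC, 12.5% TGCGCNC and 0.387% the palindrome. Within the printed bases, Mt1 had 1 match to TGCACNC and 1 to the palindrome, and Mt2 had 2 to TGCACNC and 1 to TGCGCNC. Bases beyond the annotated start were not searched, so these are not counts of all such sites of either gene. A match describes letters only; no binding was measured.

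The lowest Wald statistic, the change over its SE, was that of Cyp1a1, which oxidizes aromatic compounds and is the classic target of the aryl hydrocarbon receptor. It had 845 and 813 counts in fed against 1 and 1 in fasted libraries. With 2 fasted counts in all, the ratio of normalized counts was 733 with a 95% counting interval of 203 to 6056, and the deposited change was -9.54 (SE 1.12, adjusted p 1.36e-13). All 10 listed genes of that receptor had a change below 0, with a median of -0.77, but no other was called. The list's highest means were Ugt1a6a (-0.53, SE 0.47), Nqo1 (-0.58, SE 0.36), Tiparp (-0.24, SE 0.44) and the receptor gene Ahr itself (-0.54, SE 0.39) in the authors' deposited table. The 250 bases before the Cyp1a1 start, shown because its RNA came close to 0, hold 1 match to the receptor's core GCGTG, in capitals; 28.2% of promoters hold one.
Cyp1a1 promoter, chr9:57697363-57697612, plus strand: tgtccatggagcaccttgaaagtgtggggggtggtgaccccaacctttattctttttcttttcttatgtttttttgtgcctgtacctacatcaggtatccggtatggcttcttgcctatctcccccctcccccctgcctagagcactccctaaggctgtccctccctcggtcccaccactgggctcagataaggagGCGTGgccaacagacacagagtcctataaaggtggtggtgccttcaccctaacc

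Other enzymes of foreign compound metabolism went both ways. Of 21 listed conjugation enzymes, 12 had a change below 0, the median was -0.30 and only Mgst1 was called. The 10 read members had a median of -0.31, and 0.30 without fasted library 1. Sult1a1, Akr1b8 and Ugt2b38 are called genes from outside that list. Sult1a1, a phenol sulfotransferase, rose from 113 and 104 normalized counts in fed to 591 and 836 in fasted libraries (deposited change 2.72, SE 0.44, adjusted p 6.77e-07). Mgst1, a membrane-bound glutathione transferase, and the aldo-keto reductase Akr1b8 also rose: the first had a deposited change of 2.21 (SE 0.58, adjusted p 0.0276), and the second went from 371 and 512 to 1368 and 1132 normalized counts (adjusted p 0.0463 in the authors' deposited table). Ugt2b38, a glucuronosyltransferase, fell from 895 and 1523 to 242 and 255 (deposited change -2.28, SE 0.45, adjusted p 0.000262). Among 13 carboxylesterases, hydrolases of esters and drugs, Ces3b rose from 7.87 and 2.16 to 22.2 and 199 and Ces2b fell from 1856 and 2746 to 591 and 846 (deposited changes 4.43, SE 1.13, adjusted p 0.0204, and -1.68, SE 0.44, adjusted p 0.0284). The cytochromes of families 2 to 4 on the list were not called; Cyp3a11 had a deposited change of 2.17 with an SE of 0.93. Cyp2d9, outside the list, rose (4.21, SE 0.95, adjusted p 0.00314), but its fasted libraries held 144 and 1476 normalized counts against 21.3 and 66.9 in fed ones.

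**Figure D3:**
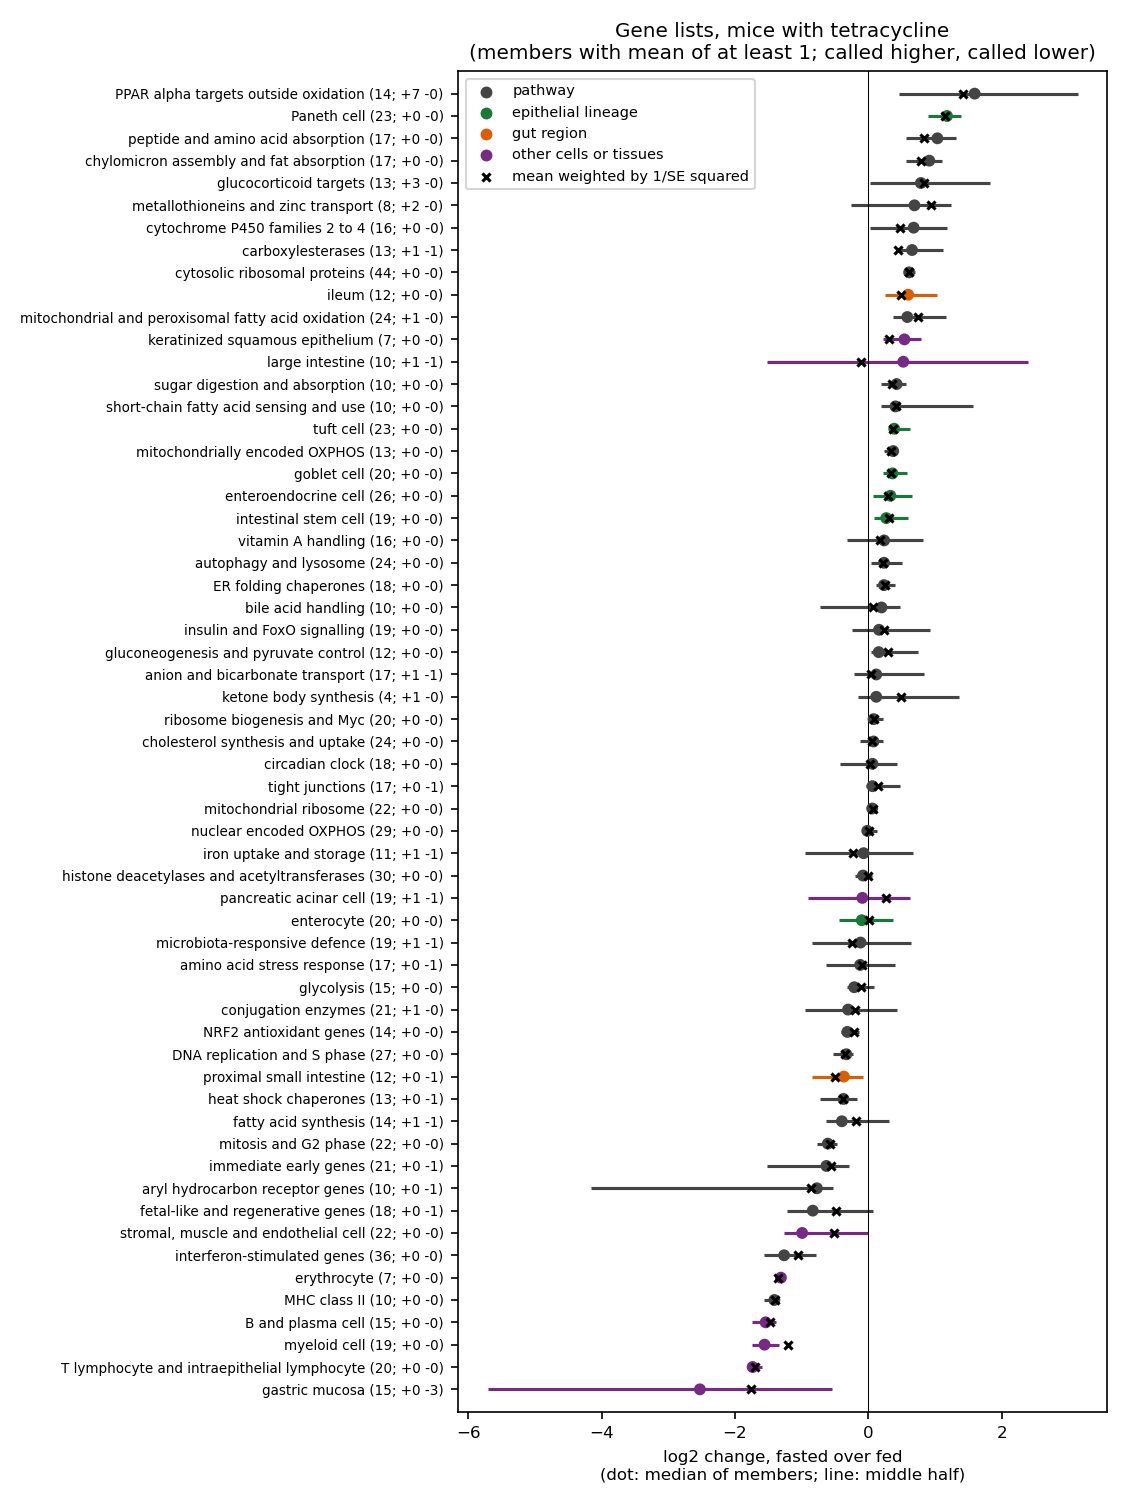
Median deposited log2 change (dots, x axis) of each of the 59 gene lists, with lines from the lower to the upper quartile of members and crosses for the mean weighted by 1 over the squared SE; labels give members with a mean of at least 1 and the numbers called higher and lower. Called genes gather among PPAR alpha targets (7 higher), glucocorticoid targets (3 higher) and gastric mucosa genes (3 lower), and 38 lists hold none.

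A pair of called genes act in calcium transport, for which no list was made. S100g, the calbindin that ferries calcium through enterocytes, fell from a rebuilt mean of 21438 to 2640.2, a deposited change of -3.02 (SE 0.38, adjusted p 5.91e-12). Trpv6, the calcium channel of the enterocyte's luminal membrane, fell from 436 and 554 normalized counts to 116 and 118 (deposited change -2.08, SE 0.43, adjusted p 0.000569). Both genes belong to active calcium uptake, which vitamin D controls and which is strongest in the proximal small intestine. The list of 12 proximal small intestine genes had a median of -0.37, with 9 below 0 and 1 called, the iron exporter described next. Its 8 read members summed to 34834 and 39147 in fed against 14129 and 26498 in fasted libraries, and 4 were apart, all with fasted below fed. Where along the intestine each library was taken is not given in the sources used here, and its part in these falls was not tested.

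Of 11 iron genes, 1 rose and 1 fell. Slc40a1 (ferroportin), the iron exporter, fell from 11070.4 and 12823 normalized counts in fed to 2059 and 4313 in fasted libraries (deposited change -1.91, SE 0.49, adjusted p 0.0201). Tfrc, the transferrin receptor that takes iron up, rose from a rebuilt mean of 11257 to 43211 (deposited change 1.94, SE 0.50, adjusted p 0.0249). The ferritin heavy chain Fth1 (-1.23, SE 0.38, adjusted p 0.13) was not called in the authors' deposited table.

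Of 17 anion and bicarbonate transport genes, 1 rose and 1 fell, with a median of 0.12. Car2, a carbonic anhydrase, fell from 7732 and 4506 normalized counts to 1711 and 1746 (deposited change -1.82, SE 0.44, adjusted p 0.00802). Best2, an anion channel, had 1 and 0 counts in fed against 109 and 21 in fasted libraries, a ratio of normalized counts of 147 with a counting interval of 25.9 to 5853. Aqp8 fell from 913 and 2050.4 to 114 and 322 and Aqp1 rose from a rebuilt mean of 7855 to 25689.7 (deposited changes -2.77, SE 0.64, adjusted p 0.00544, and 1.71, SE 0.41, adjusted p 0.00746); both are water channels. Slc22a3, a transporter of organic cations, rose from 109 and 178 to 1066 and 803 (deposited change 2.70, SE 0.46, adjusted p 6.46e-06). Aqp8, Aqp1 and Slc22a3 are called genes from outside the anion and bicarbonate list. Best2 and Aqp8 are also the called members of the large intestine list, whose 10 genes had a median of 0.53. Its read members had a median of -0.09 without fasted library 2. The part of the sampled position along the gut was not tested.

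Absorption of peptides and amino acids had a median change of 1.04, with 16 of 17 genes above 0, none called. The peptidases Anpep (1.06, SE 0.70), Enpep (1.27, SE 0.66) and Mep1b (1.26, SE 0.69) were among its highest means. None of the 6 members that could be read was apart: their summed normalized counts were 25991 and 28688 in fed against 22200 and 72554 in fasted libraries. The level was thus high in fasted library 2 and, in fasted library 1, below both fed libraries. Sugar digestion and absorption had a median of 0.42, with Sis (0.82, SE 0.71) and Slc5a1 (1.01, SE 0.77) not called. Fabp6, an ileal bile acid binder, was read at 14356 and 9523 in fed against 728 and 4434 in fasted libraries, and its deposited change of -2.21 (SE 0.75, adjusted p 0.268) was not called. Most of its list went the other way: of 12 ileum genes, 10 had a change above 0, with a median of 0.60 and none called. The 11 read members had a median of 0.70, and -1.02 without fasted library 2.

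Of 4 gasdermin C genes, 3 fell and none rose; this family and those named next were picked after their values had been seen, and their copies share sequence. Gsdmc4 fell from 1347 and 1326 normalized counts in fed to 93.8 and 24.8 in fasted libraries (deposited change -4.47, SE 0.63, adjusted p 2.25e-09). Gsdmc2 and Gsdmc3 fell as well, with deposited changes of -3.21 (SE 0.59, adjusted p 4.0e-05) and -3.16 (SE 0.74, adjusted p 0.00593). Gasdermins form membrane pores after cleavage.

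Of 14 genes with symbols beginning Apol, most of them apolipoprotein L genes, 13 had a change below 0. Of the 12 with an adjusted p, 3 fell. The 14 take in Apold1 and the pseudogene Apol10c-ps. Apol10a went from 10886 and 7794 normalized counts in fed to 2394 and 649 in fasted libraries (deposited change -2.62, SE 0.63, adjusted p 0.00993). Apol7c (-2.78, SE 0.68, adjusted p 0.0101) and Apol9b (-1.89, SE 0.51, adjusted p 0.0447) were the other falls. Small proline-rich proteins, which stiffen epithelia under stress, fell for 2 of 4 genes: Sprr1a from 271 and 164 to 41.1 and 23.4 and Sprr2a3 from 846 and 749.6 to 47.7 and 168 (deposited changes -2.74, SE 0.60, and -2.90, SE 0.63, each with adjusted p 0.00168).

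The stress lists held 2 called genes, both lower. Atf3, a stress-induced transcription factor and the only called member of both the immediate early and the amino acid stress lists, was read at 1335 and 916 normalized counts in fed against 159.6 and 278 in fasted libraries. Its deposited change was -2.37 (SE 0.49, adjusted p 0.000506). Hspa1a, an inducible heat shock protein, fell from 113 and 53.9 to 14 and 5.5 (deposited change -3.06, SE 0.84, adjusted p 0.0447). Immediate early genes had 19 of 21 changes below 0, with a median of -0.63, but -0.07 for read members without fed library 1, and heat shock chaperones 11 of 13, with a median of -0.37 that became 0.05 as a mean weighted by the deposited mean.

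Defence genes against microbes had no common direction. Reg3b, a lectin that kills bacteria, rose from a rebuilt mean of 3540.1 to 50723 (deposited change 3.84, SE 0.78, adjusted p 0.000415). Duox2, an oxidase that makes hydrogen peroxide at the luminal surface, fell from 457 and 470.3 normalized counts to 127 and 127 (deposited change -1.87, SE 0.41, adjusted p 0.00196). The list of 19 had a median of -0.12; Reg1 (-1.15, SE 0.57), Pigr (-0.02, SE 0.47) and Nlrp6 (-0.12, SE 0.37) were not called. Outside the list, Lypd8l, a relative of a secreted protein that binds bacterial flagella, fell from a rebuilt mean of 17250.4 to 3747 (deposited change -2.20, SE 0.36, adjusted p 1.98e-06).

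No interferon-stimulated gene of the list was called. All 36 had a deposited change below 0, the median was -1.26, the weighted mean -1.06, and the 95% interval excluded 0 for 18. Both fasted libraries lay below both fed ones for 25 of the 36. Their sums were 73728 and 47775 in fed against 27141 and 33826 in fasted libraries, and without fed library 1 the median was -0.66. Psmb8, a subunit of the immunoproteasome, was read at 7905 and 4061 normalized counts in fed against 2253 and 1662 in fasted libraries (-1.61, SE 0.48, adjusted p 0.108). Ubd, an interferon-inducible ubiquitin-like protein on no list, was called, from 116 and 52.9 to 10.7 and 2.75 (deposited change -3.58, SE 0.91, adjusted p 0.0182). Fed library 1, which had the highest level of Psmb8, also held the most lymphocyte RNA, as given next; the part of that in these changes was not tested.

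None of the T, B, myeloid, MHC class II or erythrocyte genes listed was called. All 20 T lymphocyte genes had a change below 0, with a median of -1.74; Gzma (-1.71, SE 0.84), Ccl5 (-2.03, SE 0.94) and Gzmb (-1.76, SE 0.82) are made by cytotoxic T cells. The 16 that could be read summed to 93923 and 23695 normalized counts in fed against 30518 and 5022 in fasted libraries, so fasted library 1 lay above fed library 2 and 0 of the 16 were apart. The 10 MHC class II genes followed the same order, with sums of 46964 and 13713 in fed against 18596 and 2554 in fasted libraries, a median change of -1.41 and none apart. Cd74, their shared chaperone, stood at 21764 and 6144 against 7911 and 909. Myeloid genes had a median of -1.56, with sums of 17004 and 6789 in fed against 6577 and 1585 in fasted libraries, and 14 of 19 were apart with fasted below fed. All 4 read erythrocyte genes were apart in the same direction (median of the 7 listed -1.31), whereas B and plasma cell genes had a median of -1.54 and 0 of 15 apart. Without fed library 1 the medians of read members were -0.40 for T cell, -0.27 for B and plasma cell, -0.28 for MHC class II and -0.93 for myeloid genes. Mcpt1, a protease of mucosal mast cells, and the chemokine Ccl24 fell, with deposited changes of -2.40 (SE 0.62, adjusted p 0.0263) and -2.82 (SE 0.69, adjusted p 0.0101).

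Markers of the labelled tissue were present on both sides: the enterocyte gene Vil1 had rebuilt means of 127582 fed and 116745 fasted, and the Paneth cell lysozyme Lyz1 143279 and 282443. Of the lineage lists, none held a called gene in the authors' deposited table. Paneth cell genes had the highest median, 1.18, with all 23 members above 0 and 7 intervals excluding 0; Lyz1 (0.98, SE 0.70), Defa24 (1.27, SE 0.72), Defa23 (0.77, SE 0.74) and the lectin Itln1 (1.12, SE 0.73) had the highest means. Only 2 of the 8 members that could be read were apart. Their sums were 7897 and 10661 in fed against 37022 and 9618 in fasted libraries, and without fasted library 1 the median of those 8 was -0.02. Defensin copies are near-identical, so single defensin values are uncertain.

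Stem cell genes followed the same library. They had a median of 0.27, with 16 of 19 above 0, and summed to 26554 and 47657 normalized counts in fed against 58544 and 29096 in fasted libraries. Without fasted library 1 their median went from 0.27 to -0.39. Olfm4, which marks crypt base stem cells, had a deposited change of -0.51 (SE 0.70), and Prom1 stood at 3018 and 6378 in fed against 6108 and 3321 in fasted libraries. The direction for this lineage therefore rested on 1 library.

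**Figure D4:**
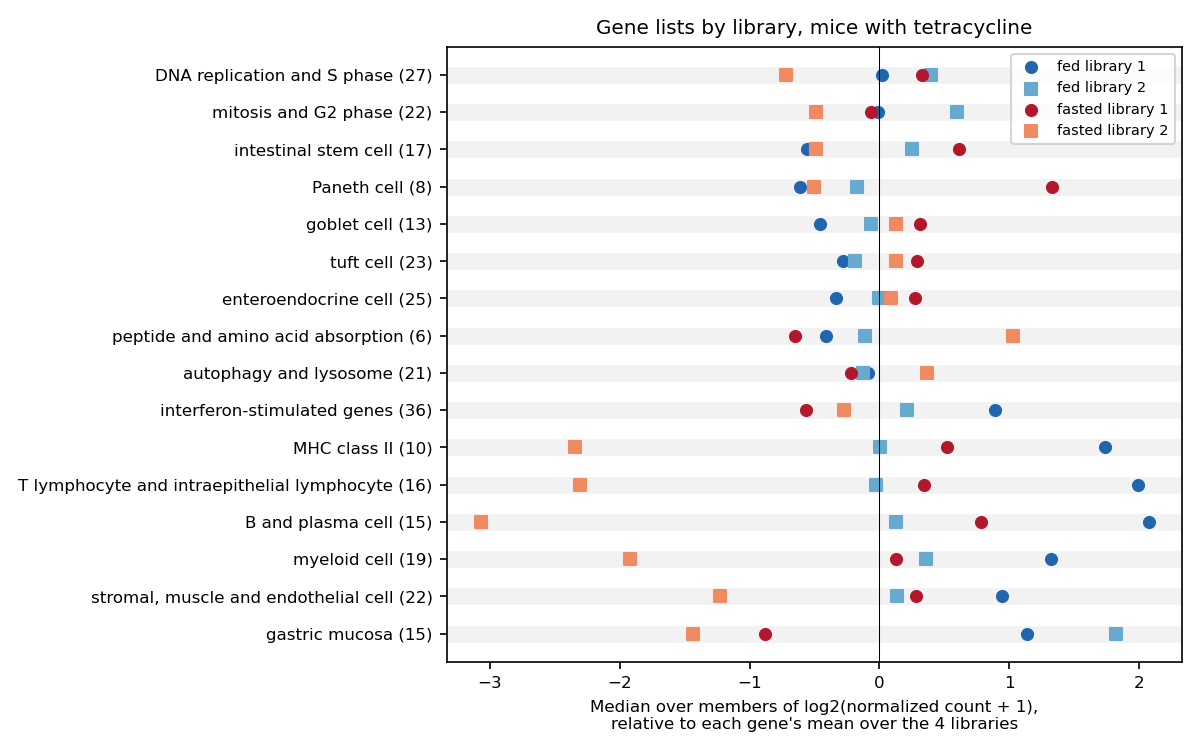
Median over members of log2(normalized count + 1), each gene centred on its mean over the 4 libraries (x axis), for 16 gene lists (rows, with the number of members read); blue symbols are fed and red or orange symbols fasted libraries. Paneth and stem cell genes are highest in fasted library 1, peptide absorption genes in fasted library 2, and the lymphocyte lists run from fed library 1 down to fasted library 2.

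Secretory and sensory lineages were more even. Tuft cell genes had a median of 0.39, with 21 of 23 above 0 and 15 of 23 apart with fasted above fed, and goblet cell genes a median of 0.36, with 8 of 13 read members apart in the same direction. Trpm5, a channel of tuft cell taste signalling, stood at 1094 and 1491 normalized counts in fed against 2013 and 1732 in fasted libraries (0.54, SE 0.40). Enteroendocrine genes had a median of 0.33, and of 25 read members 11 were apart with fasted above fed, 3 with fasted below, and 11 overlapped. Their highest means were Chgb, with a deposited change of 0.25 (SE 0.38), and Chga, at 6383 and 5906 in fed against 10259.7 and 10759 in fasted libraries (0.77, SE 0.35, adjusted p 0.809). The goblet products with the highest means, Fcgbp (0.36, SE 0.51), Zg16 (0.67, SE 0.43), Muc2 (0.22, SE 0.47) and Clca1 (-0.22, SE 0.42), were not called. Nmu, a neuropeptide gene, rose from 13.4 and 11.9 to 63.4 and 93.6 (deposited change 2.63, SE 0.71, adjusted p 0.0394).

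No proliferation gene was called. All 22 mitosis genes had a change below 0, with a median of -0.61, and 13 were apart with fasted below fed, against 15.9% of all genes. Their sums were 56941 and 91767 in fed against 56601 and 41012 in fasted libraries, so the first library of each side was nearly equal, and without fed library 2 the median was -0.27. Top2a, which untangles chromosomes, was read at 8417 and 13912 normalized counts in fed against 8015 and 5074 in fasted libraries (-0.77, SE 0.47), and Mki67, the Ki-67 proliferation antigen, at 7199.9 and 14468 against 7797 and 4799 (-0.78, SE 0.51). DNA replication genes had a median of -0.33, with 25 of 27 below 0 but only 5 apart. Their sums were 57045 and 73702 in fed against 66983 and 36660 in fasted libraries, and without fasted library 2 their median was -0.00264.

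Machinery common to all cells held no called gene. All 44 cytosolic ribosomal protein genes had a change above 0, with a median of 0.61 and a range of 0.21 to 0.82. Only 2 of them could be read, with sums of 2560 and 3455 in fed against 4994 and 3640 in fasted libraries. How far the list's rise rests on a single library could therefore not be checked. The 13 mitochondrially encoded respiratory genes, none of which could be read by library, had a median of 0.37, all above 0. The 29 nuclear encoded ones had a median of -0.02, with 20 intervals within plus and minus 1. For mitochondrial ribosome genes 21 of 22 intervals lay within plus and minus 1. Histone deacetylases and acetyltransferases had a median of -0.08, with 19 of 30 intervals within plus and minus 1. Genes that sense or use short-chain fatty acids, products of gut bacteria, were all above 0 (10 of 10, median 0.41), with Slc5a12 at 1589 and 949 normalized counts in fed against 686 and 13054 in fasted libraries.

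Genes typical of the stomach lining were lower on the fasted side. Of 15 gastric mucosa genes, 3 fell, none rose, and 10 were apart. Muc5ac, the mucin of the stomach surface, was read at 103 and 1049 normalized counts in fed against 1.65 and 16.5 in fasted libraries (deposited change -6.05, SE 1.10, adjusted p 2.96e-05), so most of the fed signal came from library 2. Anxa10 fell from 113 and 252 to 14 and 12.4 (-3.78, SE 0.69, adjusted p 2.84e-05), and Ctse, a protease of gastric cells, from 805 and 990.1 to 294 and 172 (-1.94, SE 0.46, adjusted p 0.00804). Tff1, a trefoil peptide of gastric mucus, was read at 732 and 2469.9 in fed against 0.823 and 37.1 in fasted libraries, but with an SE of 1.97 it was not called. The tight junction gene Cldn18, whose main isoform outside lung is gastric, fell too (52.0 and 182 against 0 and 9.63; -4.72, SE 1.19, adjusted p 0.0184), as did the mucin-like Mucl3 (300.0 and 977 against 8.23 and 27.5; -5.20, SE 0.77, adjusted p 2.56e-08). The list summed to 4582 and 11803 in fed against 2196 and 850 in fasted libraries; where along the gut each library was taken is not given in the sources used here, and its part in these falls was not tested.

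Pancreatic acinar genes had a median of -0.09, a direction that did not hold: it was 0.27 weighted by 1 over the squared SE, 0.46 at a mean of at least 50 and 1.27 without fed library 2. Their sums were 7931 and 11465 in fed against 30740.5 and 12173 in fasted libraries, highest in fasted library 1. Among them Pnliprp2, a lipase, rose from 2916 and 4113 normalized counts to 16753 and 8143 (deposited change 1.82, SE 0.50, adjusted p 0.0449). Amy2a4, an amylase copy called lower, had 405 counts in fed library 2 and 0 in each of the other libraries, so its call rested on that library and its copies cannot be told apart with certainty.

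The following called genes were in no list and were picked after their values were seen. Lamb3, a laminin chain of the basement membrane, was read at 1155 and 1197 normalized counts in fed against 4224 and 5366 in fasted libraries (deposited change 2.03, SE 0.37, adjusted p 4.2e-05). Prss23, a secreted protease, was read at 678 and 793 against 3014 and 2628 (deposited change 1.94, SE 0.37, adjusted p 0.00012). Cemip, which degrades hyaluronan, rose from 25.2 and 39.9 to 172 and 894 and the guidance cue Sema3c from 166 and 301 to 1006 and 886 (deposited changes 4.04, SE 0.78, adjusted p 0.000128, and 2.02, SE 0.47, adjusted p 0.0055). Mfge8, a bridge between dying cells and phagocytes, rose from 1712 and 2497 to 5649 and 5939 (deposited change 1.46, SE 0.40, adjusted p 0.0447).

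Further falls came from varied genes. Itpr1, a calcium release channel, went from 1722 and 2393 normalized counts to 585 and 327, and the guanine deaminase Gda from a rebuilt mean of 59589 to 13793 (deposited changes -2.17, SE 0.47, adjusted p 0.00168, and -2.11, SE 0.57, adjusted p 0.0401). Rbp7, a retinol binder, went from 1163 and 1504 to 361 and 376 (deposited change -1.86, SE 0.39, adjusted p 0.000994), and Pla2g4c, a phospholipase, from 142 and 139 to 11.5 and 11 (deposited change -3.64, SE 0.63, adjusted p 6.46e-06). Less studied genes were among the clearest falls: ccdc198 (-3.49, SE 0.45, adjusted p 1.83e-11), Pramel34 (-4.87, SE 0.68, adjusted p 1.72e-09) and the olfactory receptor gene Olfr1260 (-2.69, SE 0.46, adjusted p 5.34e-06). The imprinted RNA H19 had 47 and 32 counts in fed against 2 and 0 in fasted libraries, a ratio of normalized counts of 34.9 with a counting interval of 9.35 to 293.

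Some called rises lie in predicted or copied genes, where reads can move between copies or overlapping neighbours, since the library kit did not keep the strand. Gm27149 had 0 counts in both fed libraries and 232 and 334 in fasted ones, at least 238-fold higher against a floor of 3 counts over the fed side. Yy2, a retroposed relative of the transcription factor Yy1, had 0 and 0 counts against 70 and 58, at least 50.3-fold higher on the same floor. Gm14440 had 246 counts in fasted library 2 and 0 in the others, so its call rested on that library. Gm15889 was called with a deposited change of 2.69 (SE 0.48, adjusted p 1.41e-05).

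The fasting change was compared with that in mice without tetracycline to see where it differed. A Wald test of the difference in change, with a two-sided normal p and Benjamini-Hochberg adjustment over 17571 genes, called 4 (0.0228%). Of the 108 genes called under tetracycline, 65 were also among the 411 called without it, where 2.27% of genes were called. Of the 105 that could be tested for a difference, 2 differed, Yy2 and Gm14308, and 25 had an unadjusted p under 0.05. Of all genes tested 1.05% did, but the 105 were chosen for their change under tetracycline, which is part of the difference, so these shares are not comparable. Gm14308 rose under tetracycline, from 26.0 and 30.2 normalized counts to 313 and 212 (deposited change 3.23, SE 0.53, adjusted p 1.6e-06), and had a deposited change of -0.70 (SE 0.62) without it. Among 36 interferon-stimulated genes the median was -1.26 with and -0.26 without tetracycline, and 5 had an unadjusted difference p under 0.05, with 0 called. Among gastric genes the medians were -2.53 and -0.29; Muc5ac had a deposited value of 2.82 (SE 2.29) without tetracycline and was not called there, and its difference had an adjusted p of 0.647. Tfrc (1.94 with, 0.43 without) and Duox2 (-1.87 with, 0.88 without) had unadjusted difference p of 0.00947 and 0.0259, and neither passed the adjustment.

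**Figure D5:**
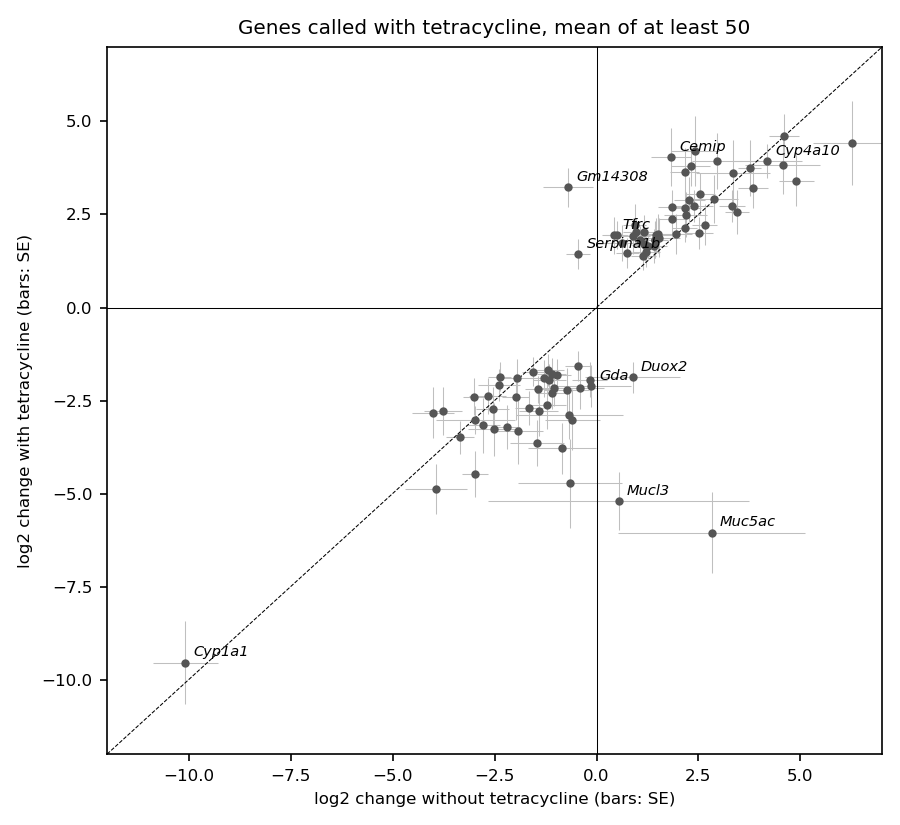
Deposited log2 change with tetracycline (y axis) against that without (x axis) for 92 genes called under tetracycline with a mean of at least 50; bars are the deposited SE, the dashed line marks equal changes, and 2 further genes, Amy2a4 and Gm27149, lie outside. Cyp4a10 changed by 3.93 with and 4.18 without tetracycline, whereas Gm14308, Serpina1b, Muc5ac, Mucl3 and Duox2 have changes of opposite sign in the pair of tables; none of these 5 was called without tetracycline, and of them only Gm14308 passed the test of the difference.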

How the data were processed

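Crypt RNA was sequenced from fed and 24-hour fasted mice, with and without tetracycline, 1 labelled sample per group. Salmon, DESeq2 and the build mm10 are named in the submitters' processing notes, with no role or version, and the library kit was non-directional per the labels' protocols. The authors deposited 1 table per contrast, with the mean signal of each gene (counts divided by size factors), its log2 fold change and SE on the log2 scale, the Wald statistic, a score given as change over SE, and the p-value with its Benjamini-Hochberg adjustment, per the file headers. Gene symbols came from the file (19806) or from GENCODE mouse release 21 (6139).

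From the deposited means and changes, whole counts of 4 libraries were solved for and 99.97% of 25010 genes with a mean up to 10000 were read. A control, the same genes with their means slightly displaced, was read for 0.467%. Because the library counts are recovered values that match no labelled sample, no count model was fitted. Each side's mean was rebuilt where counts were not read. List summaries use members with a mean of at least 1; 95% intervals are the change plus or minus 1.96 SE. Where a side had 0 counts, folds are lower bounds against 3 counts over that side; where it had 1 to 3, the ratio is given with an interval for counting error only.

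Some genes are not reported here. The difference between tables used the change and SE of each. Named genes were any called gene, and from each list the called members and the 4 with the highest mean. The members and gene lists were chosen with earlier results of these data known. Alternatives were other thresholds, filters, centring, pseudocounts, weights and left-out libraries. The scripts were tested on simulated data. Python 3.11.15, numpy 2.4.6, pandas 2.3.3, scipy 1.17.1, statsmodels 0.14.6 and matplotlib 3.10.9 were used.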

Additional observations from a re-analysis of the deposited data

Results flagged for a closer look

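For 4 genes the fasting change differed between mice with and without tetracycline by the Wald test of the difference, adjusted over 17571 genes. The difference, with minus without, was 8.77 (SE 1.72, adjusted p 0.00376) for Yy2 and 3.93 (SE 0.82, adjusted p 0.00842) for Gm14308, whose library values are given above. For Mid1-ps1 it was 12.49 (SE 2.47, adjusted p 0.00376), with 2 and 0 counts in fed and 6 and 31 in fasted libraries under tetracycline. For Gm49749 it was -9.53 (SE 2.12, adjusted p 0.0318), from a change of -0.66 with and 8.86 without tetracycline, with 57 and 28 counts in fed and 57 and 0 in fasted libraries under tetracycline.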

How the results depend on the processing

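With an adjusted p under 0.01 in place of 0.05, 68 of the 108 called genes stayed called, and with 0.1 there were 141. Of the 108, 95 had a mean of at least 50. Genes changed by at least 1 on the log2 scale numbered 2088 higher and 3262 lower at a mean of at least 1, and 961 and 1961 at a mean of at least 5. The difference between the tables called 4 genes, and 1 when only genes with a mean of at least 50 in both were tested. Leaving out each library in turn, 93 to 94 of the 94 read called genes kept a change of at least 1. These genes were called on the same libraries, which favours that outcome. This check and the single-gene alternatives were chosen after seeing the data. A pseudocount of 1 on rebuilt means moved 5 of the 108 called changes by more than their SE.

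List medians under 295 other summaries moved by less than their members' median SE in 287 and changed sign in 16. That SE belongs to single genes and is a wide limit for a median over many, so the 287 do not show stability. Leaving out a library changed the sign in 36 of 216 settings, in 27 of 54 lists. Without fasted library 2, the medians of read members went from 0.59 to -0.29 for peptide absorption, from 0.70 to -1.02 for ileum genes, from 0.23 to -0.12 for autophagy and from 0.21 to -0.10 for ER chaperones. Without fasted library 1, enterocyte genes went from -0.42 to 0.12. The cause was not tested. No paired analysis was possible because the tables hold no per-sample columns and the libraries carry no replicate number. Below a mean of 50 the median SE of 1.07 left smaller changes undetectable.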

Other observations

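Several called genes fit no list. Chrna2, a nicotinic acetylcholine receptor subunit, and Cspg4, a proteoglycan of pericytes, rose in fasted mice, with deposited changes of 2.92 and 3.68. Hpn, a membrane serine protease, rose by 2.49 and Cd59a, an inhibitor of complement, by 1.73 in the authors' deposited table. Mal, a protein of apical membrane transport, and Dock8, an exchange factor of immune cells, fell, with deposited changes of -3.01 and -1.57.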
